A study of Mus musculus with 27 samples.

Results

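Dio1 encodes type 1 iodothyronine deiodinase, a selenoprotein enzyme of the liver, kidney and thyroid. Of the 12488 probe sets in the deposited table, 1 carried the annotation Dio1, and it is the measure used throughout. It was 1 of 6784 probe sets that lay above the median of their array in at least 9 of 27 arrays, which covered 5200 singly named genes. RNA from 27 mouse livers had been put on Affymetrix arrays, 1 liver to an array, 9 each from groups called Con, Veh and Dex. What these short names stand for is not written in the labels, which also give no strain, sex, age, dose or time. Dio1 was chosen by its measured levels in these same arrays, where its differences of Dex from Veh and from Con were among the most negative, so its group levels are described without a test.

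Thyroid hormone leaves the thyroid mostly as thyroxine, which binds its receptors weakly, and deiodinases in the tissues remove an iodine from the outer ring to make the active hormone triiodothyronine. Dio1 can also remove iodine from the inner ring and clears sulfated and inactive iodothyronines, so that in liver it serves both activation and disposal of the hormone and the recovery of iodide. Its gene is itself a known target of thyroid hormone in the liver, and its mRNA needs the selenoprotein machinery, which reads a stop codon as selenocysteine.

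In the RefSeq tables for build GRCm38.p6, Dio1 lies on the minus strand of chromosome 4, and the next gene in order, Yipf1, lies on the plus strand beside it. The genes start 7195 bases apart and run away from each other. Both upstream windows are shown because Yipf1 had the highest likeness to Dio1 across mice of all measured genes, as described further on. The 250 bases before each start (Dio1 chr4:107307169-107307418, minus strand; Yipf1 chr4:107314113-107314362, plus strand) are written 5′ to 3′ in the direction of the gene, with matches to CACCC and TATAAA on either strand in capitals:
Dio1: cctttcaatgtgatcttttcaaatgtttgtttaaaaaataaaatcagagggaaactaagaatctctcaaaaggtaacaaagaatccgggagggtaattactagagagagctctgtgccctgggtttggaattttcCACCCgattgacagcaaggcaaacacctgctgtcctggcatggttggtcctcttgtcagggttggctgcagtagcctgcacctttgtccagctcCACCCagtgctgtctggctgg
Yipf1: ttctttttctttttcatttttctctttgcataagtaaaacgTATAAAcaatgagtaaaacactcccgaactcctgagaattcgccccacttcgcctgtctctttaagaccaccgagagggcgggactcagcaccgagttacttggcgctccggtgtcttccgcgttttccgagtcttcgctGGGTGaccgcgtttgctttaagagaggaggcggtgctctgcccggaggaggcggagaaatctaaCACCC
The Dio1 window held CACCC at -115 and -21 from the start, both on the strand of the gene. The Yipf1 window held it at -69 on the other strand and at -5 on its own, and TATAAA at -209. CACCC occurred in 51.3% of the 27025 promoter windows of this length, and TATAAA in 13%. AGGTCA, the consensus letters of a nuclear receptor half-site, occurred in 13.8% of windows and in neither of these. The 3 motifs were chosen after the expression values were seen.

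The arrays had been scaled alike, with trimmed means of 100.09 to 100.15, and their median intensities ran from 17.6 to 33.3. Spearman correlations between arrays ran from 0.833 to 0.938, and no arrays were identical. Of 9 hepatocyte markers, 7 were on the array and all 7 lay above the array median in at least 9 arrays. None of the thyroid markers on the array (3 of 5) and none of the 6 kidney markers did so. The thyroid markers summed to at most 35.4 intensity units and the kidney markers to at most 109.9, against 35778.8 or more for the hepatocyte markers. Dex 1, Dex 2 and Dex 3 stood apart from the other Dex mice in some transcripts. Cyp2b10, a cytochrome of xenobiotic metabolism, reached 5169.5, 3564.3 and 5032.1 in them, against 115.6 to 854.5 in the other 6. The log2 ratio of 3′ to 5′ beta-actin control probes, a sign of RNA quality, averaged 0.95 ± 0.24 for Con, 1.27 ± 0.32 for Veh and 0.89 ± 0.17 for Dex (SD, n = 9 each).

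Dio1 was lowest in the Dex livers and overlapped widely between Con and Veh. In Con the Dio1 intensity was lowest in Con 8 (30.1), had a median of 106.6 and was highest in Con 2 (341.7). In Veh it was lowest in Veh 9 (1.6), had a median of 112.2 and was highest in Veh 3 (255.3). In Dex it was lowest in Dex 3 (1.1), had a median of 21.1 and was highest in Dex 9 (123.4). Thus 8 of 9 Dex mice lay below the Con median and also below the Veh median, and Dex 9 alone lay above both. Against Con, 5 Dex mice were below the lowest Con mouse, and 4 Con mice were above the highest Dex mouse. Against Veh, 1 Dex mouse was below the lowest Veh mouse. The second lowest Veh mouse had 43.6, and 7 Dex mice were below that value. In liver as a whole, fewer cells with the transcript and less of it per cell cannot be told apart.

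**Figure D1:**
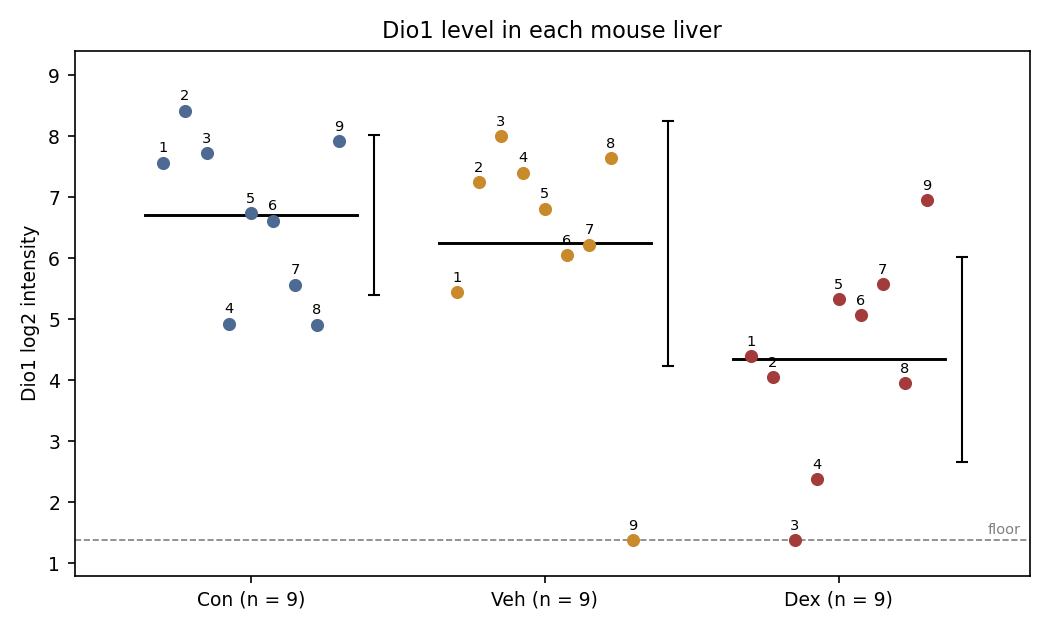
Dio1 log2 intensity (vertical axis) in each of the 9 livers of Con, Veh and Dex, with replicate numbers. Horizontal lines are group means (6.71, 6.24 and 4.34), bars beside them are 1 SD, and the dashed line is the floor at 1.38, on which Veh 9 and Dex 3 lie.

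The mean Dio1 intensity was 144 ± 108 in Con (SD, n = 9), 119 ± 81.3 in Veh (n = 9) and 33.8 ± 37 in Dex (n = 9). On the log2 scale, with values under 2.6 raised to that floor, the Con mean was 6.71 ± 1.32, the Veh mean 6.24 ± 2.0 and the Dex mean 4.34 ± 1.68. The difference of Dex from Veh was -1.90 ± 0.71 (SE of the fit over all arrays), or 3.73-fold lower. Dex differed from Con by -2.37 ± 0.71, or 5.16-fold lower, and Veh from Con by -0.47 ± 0.71. The first of these differences was the 2nd most negative of the 6784 probe sets and that from Con the 3rd most negative, the values by which the gene was chosen. Dio1 exceeded the array median in 7 of 9 Con mice, 8 Veh mice and 5 Dex mice.

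The sizes of these differences depended on a few livers. Without Dex 3, the difference of Dex from Veh was -1.53, and without Veh 9 it was -2.51. The difference of Veh from Con turned from -0.47 to 0.14 without Veh 9. Without Dex 1, Dex 2 and Dex 3 together, Dio1 differed by -1.37 from Veh and by -1.83 from Con. When the beta-actin ratio of each array entered the fit, the difference of Dex from Veh became -0.88 ± 0.80 and that of Veh from Con -1.33 ± 0.76, while that of Dex from Con was -2.20. The Dio1 deviations of the 27 mice from their group means had a Pearson r of 0.399 with that ratio (permutation p = 0.062, adjusted 0.212 over 4 array measures; Spearman rho 0.359; r = 0.328 without Veh 2 and Veh 3, the mice with the most extreme ratios, and 0.324 without Veh 9 and Dex 3). The part of RNA quality in the group differences was not tested further.

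Dio1 also varied strongly between mice of 1 group. Its highest intensity was 11.4 times the lowest in Con, and 98.2 times in Veh and 47.5 times in Dex, where the lowest mouse was set at the floor. Without that mouse it was 5.86 times in Veh, less than in Con, and 23.7 times in Dex. The pooled SD of its log2 values within groups was 1.69, against a median of 0.51 over all tested probe sets, 99.7% of which had a smaller SD. Among the 836 probe sets whose mean log2 intensity lay within 0.25 of that of Dio1, the median SD was 0.52 and 99.5% had a smaller one. Without Veh 9 and Dex 3, left out after the data were seen, the SD of Dio1 was 1.21 and 98.3% of all tested probe sets had a smaller one.

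The other genes of the pathway were taken from 6 lists covering hormone transport, deiodination and conjugation, receptors and known regulators of Dio1, hormone-responsive liver genes, selenoprotein synthesis and selenoproteins. The lists held 112 genes besides Dio1, of which 76 were on the array and 66 were tested. In Dex against Veh, 0 of 66 passed limma's test at an adjusted p of 0.05, beside 0.231% of all 5200 genes (0.265% of probe sets). At an unadjusted p of 0.05, 11 of 66 passed, beside 1029 of all 6784 probe sets. Of the 66, 32 were higher and 34 lower with a median of -0.02. In Veh against Con, 4 of 66 (6.06%) passed, 1 higher and 3 lower, beside 3.56% of all genes (1.21% higher and 2.35% lower; 3.86% of probe sets). In Dex against Con, 10 of 66 (15.2%) passed, 6 higher and 4 lower, beside 16.9% of all genes (3.1% higher and 13.8% lower; 16.4% of probe sets). The median difference of the list in those comparisons was -0.09 and -0.16, beside -0.19 and -0.20 over all probe sets. The share of the lists in Dex against Con, in either direction, was near that of all genes. The comparisons share their mice. With arrays scaled to equal quantiles, the calls of Hnf4a, Cyc1 and Selenos in Veh against Con did not pass (limma adjusted p of 0.0827, 0.283 and 0.197), nor did those of Alb, Cyc1, Iyd and Selenos in Dex against Con (0.93, 0.519, 0.237 and 0.0945) and Igfbp1 (0.05), all with unchanged sign.

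**Figure D2:**
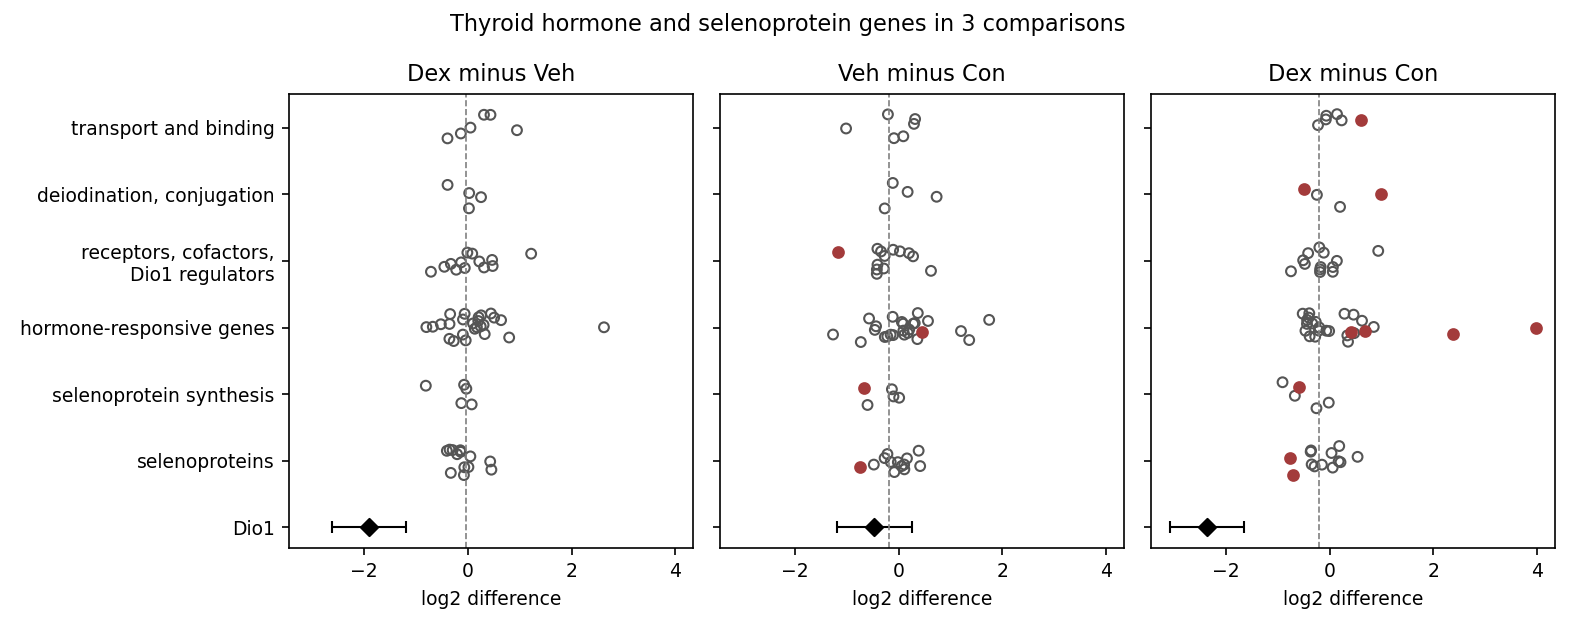
Log2 differences (horizontal axis) of the 66 tested genes in the 6 lists (rows), with Dio1 as a black diamond with its SE, in the 3 comparisons. Filled points passed limma's adjusted threshold of 0.05 (0, 4 and 10 genes) and the dashed line is the median of all tested probe sets. Dio1 lies further to the left than any list gene in Dex minus Veh and in Dex minus Con, the differences by which it was chosen.

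Among genes of hormone supply, 6 transport and binding genes and 4 conjugation and deiodination genes were tested. Ttr, a carrier of thyroxine in plasma, had medians of 2086.6 in Con, 2418.2 in Veh and 2567.8 in Dex, with differences of 0.05 to 0.14 that did not pass. Alb, the albumin that also carries thyroid hormone, had medians of 16813.5 in Con, 21261.5 in Veh and 26026.1 in Dex. It was 0.61 ± 0.19 higher in Dex than in Con (limma, adjusted p = 0.0276). The Alb call held in 20 of the 27 fits that left out an array, and was lost without Dex 1, Dex 2 and Dex 3 together. With arrays scaled to equal quantiles the Alb difference was 0.01 (adjusted p = 0.93). Sult1a1, a sulfotransferase that acts on phenols including iodothyronines, ran from 44 to 167.4 with a median of 110.3 in Con, and from 138.6 to 294.4 with a median of 194.8 in Dex. Con and Dex overlapped over a narrow range, and Sult1a1 was 0.99 ± 0.22 higher in Dex than in Con (adjusted p = 0.00465). That call held in all 27 fits that left out an array. In Veh its median was 162.7. Veh differed from Con by 0.73 ± 0.22 (limma adjusted p = 0.0591), and Dex from Veh by 0.26 ± 0.22 (adjusted p = 0.590). Iyd, which deiodinates iodotyrosines, was 0.50 lower in Dex than in Con (-0.50 ± 0.17, adjusted p = 0.0449), but that call held in only 13 of the 27 fits. Dio2, the other activating deiodinase, ran from 8.6 to 39 and did not pass the filter.

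Of 13 tested receptors, cofactors and regulators, 1 passed in Veh against Con (7.69%, beside 3.56% of all genes) and 0 in the other comparisons. Thra and Thrb, the thyroid hormone receptors, and Rxra, their usual partner, did not. Thra had medians of 105.7 in Con, 103.7 in Veh and 94.7 in Dex. Thrb had medians of 28.6, 25.2 and 25.5. Klf9, a transcription factor known to act on the Dio1 promoter, had medians of 398.3, 298.6 and 298 and did not pass either. Hnf4a, a hepatocyte transcription factor known to drive Dio1 in mouse liver, had a lowest, median and highest intensity of 144.1, 283.2 and 484.3 in Con, of 70, 127.7 and 191.8 in Veh, and of 118.8, 227 and 648 in Dex. It was the Veh mice that were low, with most of them below the lowest Con mouse. Hnf4a fell by 1.16 on the log2 scale from Con to Veh (SE 0.29, limma adjusted p = 0.0281), and Dex differed from Veh by 1.22 ± 0.29 (adjusted p = 0.0597), with the opposite sign to Dio1. The Veh call held in 23 of 27 fits without an array, with an adjusted p of up to 0.0627 without Veh 5, and its adjusted p was 0.216 when the beta-actin ratio entered the fit.

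Of 25 tested hormone-responsive liver genes, 0 passed in Dex against Veh, 1 in Veh against Con and 4 in Dex against Con, all of them higher. These shares of 4% and 16% were near the 3.56% and 16.9% of all genes that passed in either direction. As higher, only 1.21% and 3.1% of all genes passed, and the direction within the list was not tested. Thrsp, a lipogenic protein induced by thyroid hormone, had medians of 2818.9 in Con, 2777.6 in Veh and 3991.4 in Dex. It differed from Con by 0.62 ± 0.35 in Dex (adjusted p = 0.215). Me1, the cytosolic malic enzyme, had medians of 714.3, 737.3 and 749.7, and G6pc, the catalytic subunit of glucose-6-phosphatase, medians of 1487.9, 1463.2 and 1826.8. Cyp7a1, the rate-limiting enzyme of bile acid synthesis, had medians of 126.7, 33.8 and 82.6. None of these 4 passed in any comparison. Those that passed in Dex against Con were Cyp2b10 (3.98 ± 0.69, limma adjusted p = 5.67e-04), the apolipoprotein Apoa1 (0.67 ± 0.20, adjusted p = 0.0234, but 0.19 with arrays scaled to equal quantiles, adjusted p = 0.0407), the respiratory chain subunit Cyc1 (0.41 ± 0.12, adjusted p = 0.0251) and the growth factor binding protein Igfbp1 (2.39 ± 0.83, adjusted p = 0.0469). Igfbp1 and Iyd were named after their values were seen. Igfbp1 reached 910.3, 4127.5 and 105 in Dex 1, Dex 2 and Dex 3 and at most 33 in the other 6 Dex mice. Without those 3 mice only Cyp2b10 and Sult1a1 of the 10 list genes still passed in Dex against Con. With 1 array left out at a time, the Apoa1 and Cyc1 calls held in 25 of 27 fits (up to 0.0516 and 0.0556, both without Dex 4) and the Igfbp1 call in 12 (up to 0.109, without Dex 1). In Veh against Con the gene that passed was Cyc1 (0.45 ± 0.12, adjusted p = 0.0405), a call that held in 14 of 27 fits.

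Few genes of the selenoprotein lists passed, and those that did were lower than in Con, as were most of the genes that passed in these comparisons. Sephs2, which makes the selenium donor for selenocysteine, ran from 505.2 to 1289.7 with a median of 739.3 in Con, from 285.9 to 747 with a median of 491.6 in Veh, and from 414.6 to 586.7 with a median of 515.5 in Dex. Most Con mice were above most mice of the other groups. Sephs2 fell by 0.67 from Con to Veh (SE 0.18, limma adjusted p = 0.0343) and by 0.60 from Con to Dex (SE 0.18, adjusted p = 0.0237), and differed little between Dex and Veh. Selenos, a selenoprotein of the endoplasmic reticulum membrane, had medians of 106.2 in Con, 61.5 in Veh and 66.3 in Dex. It fell by 0.75 in Veh (adjusted p = 0.0435) and by 0.70 in Dex (adjusted p = 0.0264) against Con. Txnrd1, the cytosolic thioredoxin reductase, had medians of 408.8, 259.6 and 215.1 and fell by 0.77 from Con to Dex (SE 0.20, adjusted p = 0.0118). Gpx1 and Gpx4, glutathione peroxidases, did not pass, with differences of -0.29 and -0.36 in Dex against Con (adjusted p = 0.253 and 0.0619). Of 13 tested selenoproteins besides Dio1, 1 passed in Veh against Con (7.69%) and 2 in Dex against Con, all lower. Of 5 genes of selenoprotein synthesis 1 passed in each (20%), a share that rests on 1 gene. Among all genes, 3.56% passed in Veh against Con (2.35% lower) and 16.9% in Dex against Con. The 15.4% of selenoproteins in Dex against Con was near the 16.9% of all genes, of which 13.8% were lower. With 1 array left out, the Veh calls of Sephs2 and Selenos held in 19 and 13 of 27 fits, and the Dex calls of Txnrd1, Selenos and Sephs2 in 27, 26 and 25. The adjusted p of the Veh calls reached 0.0822 for Sephs2 and 0.0975 for Selenos, both without Veh 5. All 4 list calls in Veh against Con were lost when the beta-actin or the Gapdh ratio entered the fit.

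Genes that followed Dio1 from mouse to mouse were sought within groups, so that the group levels took no part. The likeness was the Pearson r, over 27 mice, between the log2 deviations of a probe set from its group means and those of Dio1. Of 6783 other probe sets, 0 passed a permutation test within groups at an adjusted p of 0.05, and 346 (5.1%) had an unadjusted p under 0.05. The smallest adjusted p was 0.271, and by Spearman's rho it was 0.441, again with 0 passing. The central 95% of r lay between -0.432 and 0.354. The genes named below are therefore the ends of a ranking in which no gene passed.

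**Figure D3:**
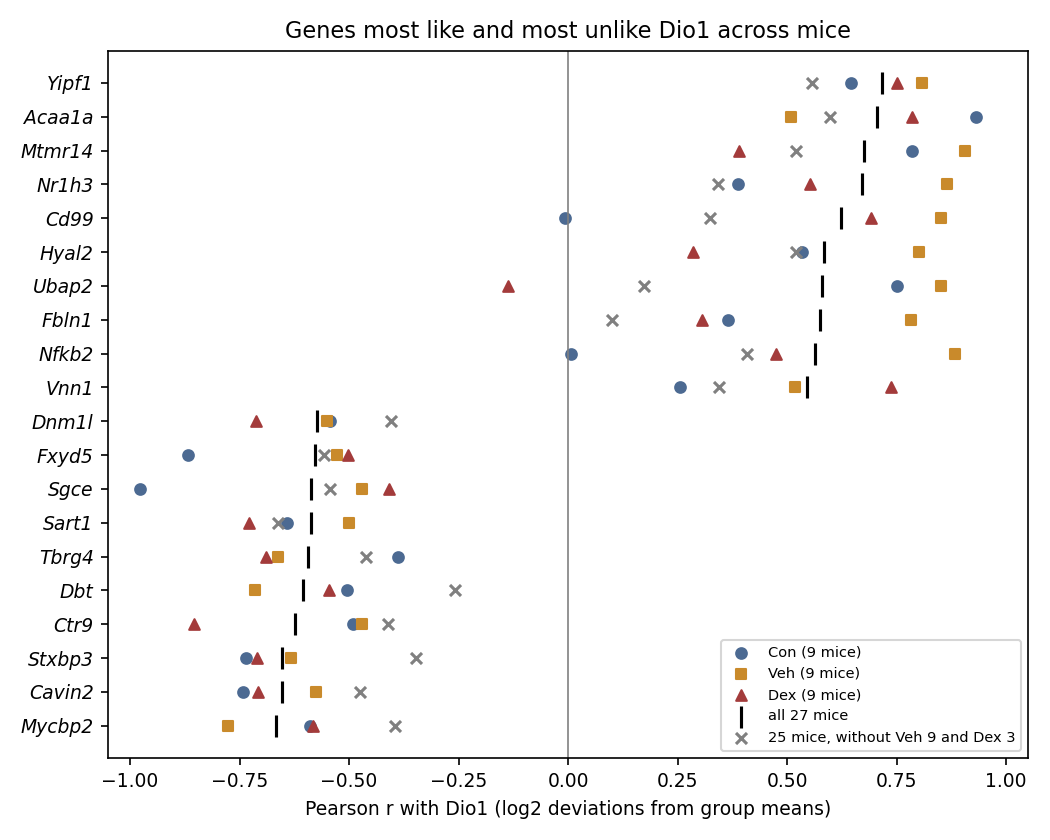
Pearson r with Dio1 (horizontal axis) of the 10 genes with the highest and the 10 with the lowest r across 27 mice, within each group of 9 mice, over all mice (black bars) and without Veh 9 and Dex 3 (crosses). The crosses of the upper 10 run from 0.0997 to 0.598, nearer to 0 than the black bars. Those of the lower 10 run from -0.663 to -0.259.

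Yipf1, a membrane protein of the Golgi apparatus, headed the ranking with r = 0.716 (rho 0.655, permutation p = 0.00011, adjusted p = 0.373). Within groups r was 0.645 for Con, 0.807 for Veh and 0.751 for Dex, and over all groups it was 0.556 without Veh 9 and Dex 3, the mice farthest from the Dio1 median. Its intensity in Dex was lowest in Dex 3 (175.8) and highest in Dex 7 (382.6), and in Veh it was lowest in Veh 9 (223.7). The livers at the Dio1 floor were thus also the lowest of their group for Yipf1, but over a much narrower range. Acaa1a, a thiolase of peroxisomal fatty acid oxidation, came next with r = 0.705 (rho 0.665, permutation p = 4e-05, adjusted p = 0.271). Within groups r was 0.932 for Con, 0.510 for Veh and 0.785 for Dex, and over all groups it was 0.598 without Veh 9 and Dex 3. In Con it ran from 793.6 in Con 4 to 1785.4 in Con 2, the mouse with the highest Dio1.

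The other 8 with a high r were Mtmr14 (a phosphoinositide phosphatase, r = 0.675), Nr1h3 (the oxysterol receptor LXR alpha, 0.670), Cd99 (a surface glycoprotein, 0.623), Hyal2 (a hyaluronidase, 0.583), Ubap2 (0.579), Fbln1 (a matrix protein, 0.574), Nfkb2 (an NF-kB subunit, 0.563) and Vnn1 (a pantetheinase, 0.544). Several of them leaned on Veh 9. Without Veh 9 and Dex 3, r was 0.341 for Nr1h3, 0.174 for Ubap2 and 0.0997 for Fbln1. For Fbln1 the intensity in Veh 9 was 25.9, against 64.7 or more in the other Veh mice. Of the 10 genes, 8 had a positive r in all 3 groups, which choosing them by the r over the same mice favoured. Cd99 had an r of -0.00650 in Con and Ubap2 of -0.137 in Dex.

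**Figure D4:**
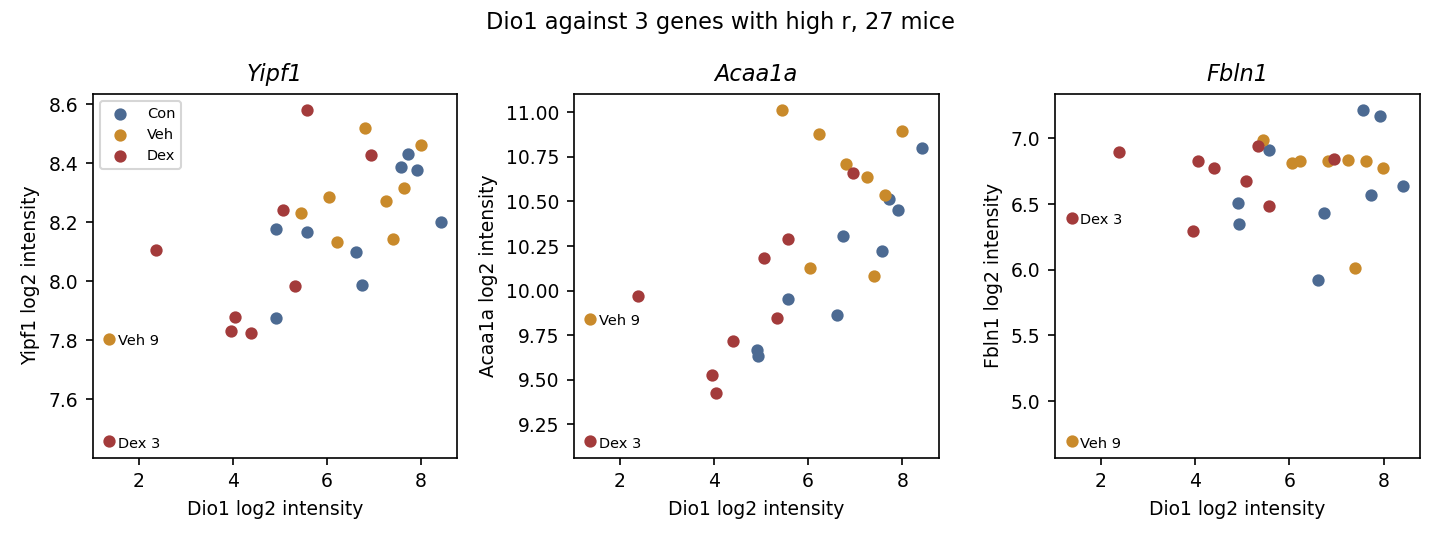
Dio1 log2 intensity (horizontal axis) against that of Yipf1, Acaa1a and Fbln1 (vertical axes) in 27 livers, coloured by group, with Veh 9 and Dex 3 named. For Fbln1 the r of 0.574 falls to 0.0997 without those mice, while for Yipf1 and Acaa1a it falls to 0.556 and 0.598.

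At the other end the lowest r was that of Mycbp2 (-0.666), a ubiquitin ligase, followed by Cavin2 (-0.653), a protein of caveolae, Stxbp3 (-0.652), which takes part in vesicle fusion, and Ctr9 (-0.624), a subunit of the PAF1 complex of transcription. Dbt (-0.606), of branched-chain amino acid breakdown, Tbrg4 (-0.593), Sart1 (-0.587), a splicing factor, Sgce (-0.586), a sarcoglycan, Fxyd5 (-0.577) and Dnm1l (-0.574), of mitochondrial fission, made up the 10. All 10 had a negative r in each group, the most negative being -0.976 for Sgce in Con. As at the other end, choosing by the r over the same mice favoured this. Sart1 had the most negative rho, -0.690. Its r without Veh 9 and Dex 3 was -0.663, whereas that of each of the others was weaker without those mice. It was then -0.396 for Mycbp2, -0.347 for Stxbp3 and -0.259 for Dbt. Mycbp2 had its highest intensity of each group in those mice (82.4 in Veh 9 and 83.9 in Dex 3).

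The group levels of these genes took no part in the ranking. Of the 10 genes with a high r, 0 passed limma's test in any comparison. Among all genes, 0.231% passed in Dex against Veh, 3.56% in Veh against Con and 16.9% in Dex against Con. In Dex against Con 8 of them were lower, with a median of -0.149 (log2), beside a median of -0.20 over all tested probe sets. Yipf1 differed by -0.15 between Dex and Con (adjusted p = 0.455) and by -0.20 between Dex and Veh (adjusted p = 0.463). Of the 10 with a low r, Dbt alone passed, at -0.98 in Dex against Con (adjusted p = 0.0158). Beside the shares of all genes, such counts among 10 genes do not set either end of the ranking apart. Of the 66 list genes, 0 passed the likeness test and 30 had a positive r. The list gene with the lowest r was Igfbp1 (-0.441) and the one with the highest was Srebf1 (0.339), a lipogenic transcription factor. Hnf4a had r = -0.381 (permutation p = 0.0567).

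Genes ranked in 1 group were also looked up in the others, which had not been used to choose them. The 10 genes with the highest r in Con (0.841 to 0.932) had a median r of 0.175 in Veh and 0.185 in Dex. Those highest in Veh had 0.0917 in Con and 0.2 in Dex, and those highest in Dex had -0.0728 in Con and 0.0582 in Veh. Acaa1a, highest in Con, kept the highest r of its set in Dex (0.785).

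Yipf1, at the head of the ranking, is the gene next to Dio1 whose upstream window is printed above, a position that was looked up after the ranking was seen. Within 30 genes to either side, 9 genes were measured, and the 1 with an r above 0.25 was Yipf1 itself. Since Yipf1 was found by the ranking, this count is no separate result. Hspb11, next to Dio1 on its other side, had r = 0.212, which ranked 558 among 5199 genes. The remaining 7 ran from -0.475 for Usp24 to 0.113 for Cpt2, a mitochondrial carnitine palmitoyltransferase. These deviations are from 1 probe set for each gene, and their r values were not tested as a group.

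**Figure D5:**
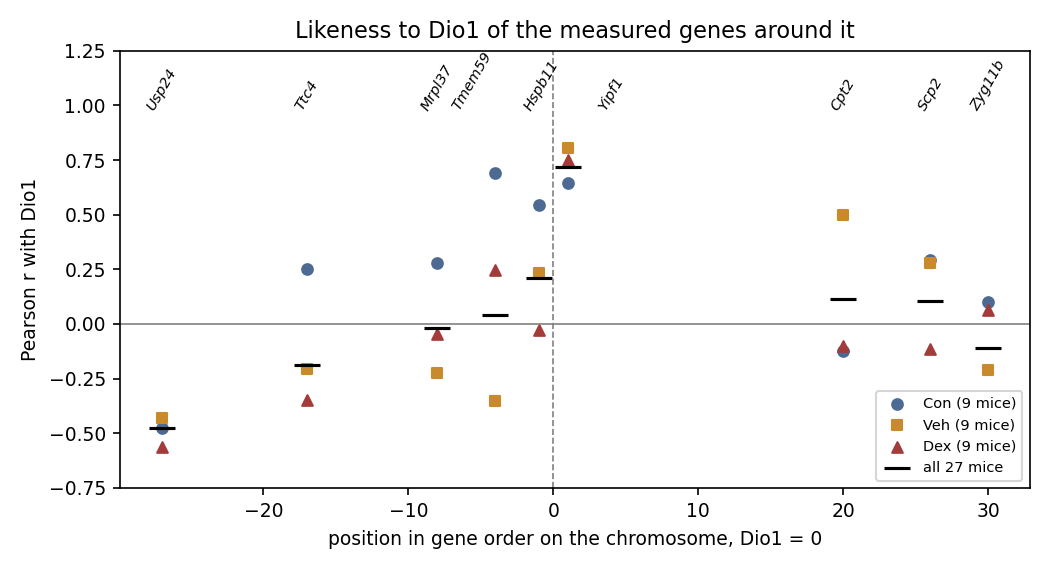
Pearson r with Dio1 (vertical axis) of the 9 measured genes within 30 positions of it in gene order (horizontal axis), within each group of 9 mice and over all 27 (black bars). Yipf1, at position 1, has 0.716 over all mice, and the next highest, Hspb11 at -1, has 0.212.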

How the data were processed

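The deposited value table held 1 linear intensity for each probe set and array, made from Affymetrix arrays per the labels. No source used here names the summarising software or its scaling. The trimmed means (2% at each end) were within 1.1-fold, so no scaling was added. Intensities under the 10th percentile (2.6) were raised to it and log2 was taken. The 66 control probe sets were left out. The annotation gave 1 symbol for 10855 probe sets, several for 396 and none for 1237; 10839 matched the RefSeq table, with 0 symbols changed. For genes with several tested probe sets, the brightest was used.

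limma 3.58.1 (R 4.3.3) fitted the 3 group means over the 27 arrays (eBayes with a mean trend, two-sided, 24 residual degrees of freedom, Benjamini-Hochberg over 6784 probe sets). Likeness used 100000 permutations within groups, two-sided, adjusted over 6783 probe sets. Both procedures were tested on simulated data. Dio1 and the gene lists were chosen with earlier results of these data known. Genes named were Dio1, the 10 highest and 10 lowest in r, up to 5 list genes by p in each comparison, and set pathway genes. Among the latter, Dio3, Serpina7, Slc16a10, Slco1a1, Slco1b2, Ugt1a1, Secisbp2 and Selenop had no single-gene probe set here, and 1 is not reported here. The number of arrays limits the precision, and p-values measure the spread between these mice. The alternatives run were scaling to equal quantiles, the floor at percentile 1 or 20, dropping the filter or asking for 18 arrays, a replicate block, only the groups compared, control probe ratios as covariates, and leaving out arrays.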

Additional observations from a re-analysis of the deposited data

Results flagged for a closer look

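In groups of 9 mice, Dixon's test sets a mouse apart when its gap to the nearest other mouse exceeds 0.493 of the range of the group. Of 123 pairs of a named gene and a group (41 genes), 15 had such a mouse, and chance gives about 1 in 20. Values are log2 intensities. Dio1 was 1.38 in Veh 9, the floor, against 5.45 in the next lowest Veh mouse. The same mouse was the low one for Mtmr14 (3.36), Nr1h3 (7.15), Cd99 (6.49), Ubap2 (5.49) and Fbln1 (4.69), genes that were ranked by their likeness to Dio1 and so were not chosen independently of it. Other low mice were Dex 4 for Mtmr14 (3.6), Con 5 for Cd99 (6.82), Con 9 for Dbt (4.67) and Con 2 for Tbrg4 (5.58). Among the pathway genes, G6pc was low in Con 1 (8.20) and Dex 2 (7.01), Cyp2b10 in Veh 3 (3.07) and Gpx4 in Con 2 (7.94), and Selenos was high in Con 9 (7.66).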

How the results depend on the processing

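Dio1 stayed lower in Dex than in Veh and than in Con under every alternative run. The filters, the replicate block and the fit of only the groups compared could not change its differences. Leaving out arrays of the group not compared could not change a difference either. These alternatives say nothing of the stability of the differences. Leaving out 1 array at a time gave -2.51 to -1.53 against Veh and -2.69 to -2.0 against Con, and -0.69 to 0.14 for Veh against Con. Without Veh 9 and Dex 3, an alternative chosen after seeing the data, the 3 values were -2.14, -2.0 and 0.14. Scaled to equal quantiles, they were -1.87, -2.11 and -0.24. With the Gapdh ratio as a covariate they were -1.22 ± 0.82, -2.06 ± 0.72 and -0.85 ± 0.74 (SE). The difference from Veh was smallest with the beta-actin ratio, at -0.88 ± 0.80, and was -1.37 ± 0.77 without Dex 1 to 3.

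Counts of calls depended more on the processing, and the cause was not tested. The 18 probe sets of Dex against Veh became 7 without a filter, 3 with the replicate block, 1 with only the groups compared, 1 with the beta-actin ratio and 1 without Dex 1 to 3, and 4 (without Dex 5) to 124 (without Dex 6) when 1 array was left out. The 262 of Veh against Con became 85 with quantiles (45 of them higher, against 81 of 262), 116 without a filter, 656 with only the groups compared, 33 with the beta-actin ratio, 75 with the Gapdh ratio and 453 without Dex 1 to 3, and 85 (without Veh 5) to 586 (without Veh 9) when 1 array was left out. The 1115 of Dex against Con became 658 with quantiles and 405 without Dex 1 to 3, and 785 to 1488 when 1 array was left out. The 4 list genes of Veh against Con became 1 without a filter and 0 with either ratio, and 0 (without Con 3, Veh 2 or Veh 5) to 6 (without Veh 9); the 10 of Dex against Con became 5 without a filter and 3 without Dex 1 to 3, and 6 (without Dex 4) to 12 (without Dex 6). The 0 of Dex against Veh ranged from 0 to 3 (without Dex 6 or Dex 9). The genes passing the likeness test stayed at 0 throughout, with a smallest adjusted p of 0.0678 without Dex 4 and 1 without Veh 9 and Dex 3.

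Deviations of mice with the same replicate number correlated weakly: of 27 pairs, 4 were above 0.1 (range -0.195 to 0.187). Pairs with different numbers were not compared, and the labels do not say whether a number links mice. With the replicate block the Dio1 differences kept their values, -1.90, -0.47 and -2.37. With every number present in every group, the block could not change them. It gave a larger SE of 0.80, and 0 probe sets passed the likeness test (smallest adjusted p 0.916).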

Other observations

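Of the 9 measured genes around Dio1, 1 passed in a group comparison, beside 3.56% of all genes in Veh against Con and 16.9% in Dex against Con. Tmem59, a Golgi protein that lies 4 genes from Dio1 in order, was lower by limma's test in Veh than in Con (-0.84, adjusted p = 0.0441) and in Dex than in Con (-1.32, adjusted p = 8.82e-04), and had r = 0.0428 with Dio1 within groups. Of the other 8 measured genes within 30 positions, 0 passed in any of the 3 comparisons. Tmem59 was named after its values were seen.

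Of the 10 genes with the highest r, 8 had an upstream window in the RefSeq promoter table and all 8 held CACCC on either strand, as did 5 of the 6 windows found for the 10 with the lowest r, beside 51.3% of all windows. AGGTCA and TATAAA each occurred in 1 of the 8 windows and 0 of the 6, beside 13.8% and 13% of all windows. Only CACCC was thus above the share of all windows at both ends. The motifs were chosen after the values were seen, no gene of the ranking had passed, and the shares were not tested.

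Summed marker levels of other liver cell types had an r with Dio1 within groups of -0.0727 for macrophages, -0.367 for endothelium and 0.238 for red cells (2 genes), and 0.0681 for hepatocytes, over 27 mice of the same arrays. It was 0.00145 for T and NK cells, 0.0157 for B cells, -0.125 for neutrophils, 0.0512 for stellate cells and 0.0583 for bile duct. Single markers ran from -0.419 (Cps1) to 0.179 (Apob) in hepatocytes and from -0.420 (Tek) to 0.0644 (Kdr) in endothelium. None of these was tested.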
